A study of Mus musculus with 24 samples.

Results

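The comparison described here sets dentate gyrus granule neurons (Exc-DG) against CA3 pyramidal neurons (Exc-CA3) of the mouse ventral hippocampus, within the same libraries. The members are the Exc-DG and Exc-CA3 columns of count tables made by single-nucleus RNA sequencing (snRNA-seq) and single-nucleus chromatin accessibility sequencing (snATAC-seq), which gave 4 library pairs in each assay. They are 8 of 68 snRNA-seq columns and 8 of 60 snATAC-seq columns, and they sum 5101 Exc-DG and 2191 Exc-CA3 of 30880 snRNA-seq nuclei and 6256 and 4008 of 27206 snATAC-seq nuclei. The series holds 24 samples, of which 8 were used and 16 methylation samples are not analysed here.

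All animals were adult males of 10 to 16 weeks from the inbred strains B6 and DBA, with tissue of 2 animals pooled per replicate and 2 libraries per strain and assay. For snRNA-seq, nuclei were sorted on NeuN, a protein of neuronal nuclei, and remixed so that neurons were the majority, whereas snATAC-seq nuclei were not selected on NeuN. Cell types were named by clustering nuclei on their transcripts, and snATAC-seq nuclei received their names from the snRNA-seq nuclei. The p-values below therefore compare clusters that were built from the same transcripts. The main test of Exc-DG against Exc-CA3 has library as block, so differences in level between libraries are removed. Its p-values measure the difference between the cell types against how that difference varied from library pair to library pair. A difference that depended on strain adds to that variation. The libraries are numbered 2 and 3 in each strain, and values are listed in the order B6 library 2, B6 library 3, DBA library 2, DBA library 3.

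Granule neurons are the principal cells of the dentate gyrus, take their main input from the entorhinal cortex and fire sparsely. Their axons, the mossy fibres, end on CA3 pyramidal neurons in large, zinc-rich boutons whose release is strongly facilitated by repeated firing and by cyclic AMP. CA3 neurons receive the mossy fibres on proximal dendrites through AMPA and kainate receptors, connect extensively among themselves and project to CA1. Both cell types are glutamatergic and descend from neighbouring parts of the medial pallium. Lists of genes, among them transcription factors, channels, receptors and adhesion molecules, are compared between them below.

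Some 300-base stretches of chromatin that differed between the cell types are printed first, since the accessibility results refer back to them. They are the centres of 5 of the 10 peaks described further on, one of them over tRNA genes, and of the peak at the start of Neurod6, a pyramidal neuron factor, read from the plus strand of GRCm38 (mm10), the build of the files. The first lies upstream of Prox1 (chr1:190306504-190306803) and the second in an intron of Pdzd2 (chr15:12728180-12728479), and both were more open in Exc-DG. The third lies upstream of Itprid1 (chr6:55811230-55811529), the fourth in a gene-poor stretch of chromosome 3 (chr3:49009142-49009441), the fifth at the start of Neurod6 (chr6:55681473-55681772) and the sixth over tRNA genes (chr13:23298926-23299225), and all 4 were more open in Exc-CA3. Capitals mark matches, on either strand, to CAGATG, an E-box of the type that neurogenic basic helix-loop-helix factors bind, to GTTGCC, part of the RFX site, to TGANTCA, the AP-1 site, or to the MEF2 site.
Prox1 upstream peak: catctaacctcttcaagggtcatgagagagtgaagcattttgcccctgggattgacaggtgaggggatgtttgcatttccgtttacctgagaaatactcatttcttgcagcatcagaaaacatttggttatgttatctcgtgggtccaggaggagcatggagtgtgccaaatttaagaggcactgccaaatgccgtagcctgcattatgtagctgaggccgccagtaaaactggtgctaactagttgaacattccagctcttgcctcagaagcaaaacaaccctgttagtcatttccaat
Pdzd2 intron peak: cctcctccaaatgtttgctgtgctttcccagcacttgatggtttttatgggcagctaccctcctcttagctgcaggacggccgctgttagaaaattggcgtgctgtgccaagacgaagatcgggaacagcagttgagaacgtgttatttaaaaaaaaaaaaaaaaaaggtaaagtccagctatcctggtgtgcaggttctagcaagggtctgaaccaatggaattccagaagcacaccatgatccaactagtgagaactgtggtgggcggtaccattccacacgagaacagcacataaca
Itprid1 upstream peak: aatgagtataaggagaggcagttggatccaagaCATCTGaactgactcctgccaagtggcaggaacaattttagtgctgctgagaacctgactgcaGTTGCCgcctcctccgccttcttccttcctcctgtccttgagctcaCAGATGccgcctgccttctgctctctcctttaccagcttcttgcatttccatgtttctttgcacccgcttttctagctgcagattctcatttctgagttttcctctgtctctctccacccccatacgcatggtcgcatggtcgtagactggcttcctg
chromosome 3 intergenic peak: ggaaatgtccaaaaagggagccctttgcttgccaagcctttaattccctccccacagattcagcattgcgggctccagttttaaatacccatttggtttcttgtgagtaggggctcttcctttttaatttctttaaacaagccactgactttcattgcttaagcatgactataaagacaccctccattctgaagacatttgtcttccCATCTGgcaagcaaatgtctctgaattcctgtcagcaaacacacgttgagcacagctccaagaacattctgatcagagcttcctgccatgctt
Neurod6 start peak: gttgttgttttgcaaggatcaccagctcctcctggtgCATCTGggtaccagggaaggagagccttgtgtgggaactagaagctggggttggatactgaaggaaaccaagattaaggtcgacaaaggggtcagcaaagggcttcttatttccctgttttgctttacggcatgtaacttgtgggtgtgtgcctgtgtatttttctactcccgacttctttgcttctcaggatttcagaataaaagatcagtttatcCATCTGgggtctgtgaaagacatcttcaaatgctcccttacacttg
chromosome 13 tRNA peak: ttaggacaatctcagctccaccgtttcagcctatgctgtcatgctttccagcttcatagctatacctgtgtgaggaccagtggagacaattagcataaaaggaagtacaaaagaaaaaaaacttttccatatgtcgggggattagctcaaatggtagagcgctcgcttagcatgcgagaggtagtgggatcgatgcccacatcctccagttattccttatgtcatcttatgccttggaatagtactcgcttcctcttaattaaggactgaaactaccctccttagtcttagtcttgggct
The Itprid1 window held 2 matches to CAGATG and 1 to GTTGCC, the Neurod6 window 2 and the chromosome 3 window 1 match to CAGATG, while the other windows held none of these 4 letter patterns. Among windows searched but not printed, that of the Exc-DG peak near Fut8 held 1 match to CAGATG and that of the Exc-DG peak at Rai14 1 match to GTTGCC, and those of the peaks near Il1r1, Arhgef26 and Pepd and at the starts of Prox1, Mef2c and Sv2b held none.

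The columns matched their labels. Prox1, the homeobox factor that specifies granule cells, stood at 311, 330, 244 and 242 CPM (counts scaled to the library size) in Exc-DG and at 2.16, 3.49, 1.66 and 1.87 CPM in Exc-CA3. Nectin3, a cell adhesion molecule of CA3 dendrites, stood at 11.4, 10.1, 12.8 and 13.5 CPM in Exc-DG and at 262, 251, 266 and 253 CPM in Exc-CA3. Neither gene overlapped between the cell types, and the log2 differences (Exc-DG minus Exc-CA3) were 6.94 ± 0.10 (SE) for Prox1 and -4.44 ± 0.075 for Nectin3 (edgeR, adjusted p = 1.27e-12 and 3.62e-12, 4 library pairs). Prox1 lies at chr1:190118035-190170714 and overlaps Prox1os on the opposite strand, and since the strand setting of the counting is not given in the sources used here, reads of the 2 transcripts cannot be told apart. Nectin3 lies at chr16:46387706-46498525.

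All 10 listed granule markers were higher in Exc-DG and all 10 listed CA3 markers were higher in Exc-CA3. Of the 15318 symbols tested, 27.0% and 26.6% were higher in each cell type. The clusters were named from these same transcripts, and the lists were chosen with earlier results of these data known. These counts are therefore no independent check of the names. Calb1, the calcium buffer calbindin, ran from 115 to 124 CPM in Exc-DG and from 2.39 to 3.66 CPM in Exc-CA3. The desmosomal protein Dsp had a log2 difference of 6.05 ± 0.23, the guanine nucleotide exchange factor Dock10 one of 4.75, the channel Trpc6 one of 3.96 ± 0.071, the RFX-family factor Rfx3 one of 3.22 ± 0.079 and the complement-like synaptic organizer C1ql2 one of 3.17 ± 0.17. Among CA3 markers the proteoglycan Spock1 had a log2 difference of -4.97 ± 0.25, the secreted protein Dkk3 one of -3.70 ± 0.093 and the kainate receptor subunit Grik4 one of -1.12 ± 0.050. Iyd had the smallest difference, -0.55 (adjusted p = 0.0414), and its call was lost under 6 alternatives, including 3 that left out a library.

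Markers of other cells were counted in both columns. Their counts, here and in the next paragraph, stand beside 27.0% of all symbols tested higher in Exc-DG and 26.6% higher in Exc-CA3. The 4 markers of mossy cells, the glutamatergic neurons of the dentate hilus, were all higher in Exc-CA3 and summed to 21.5–34.5 CPM there, against 6.10–8.96 CPM in Exc-DG. Among them the calcium buffer Calb2 stood at 9.50, 12.2, 9.57 and 7.72 CPM in Exc-CA3 and at 0.602, 0.638, 0.686 and 0.252 CPM in Exc-DG, the dopamine receptor gene Drd2 had 69 counts in Exc-CA3 and 6 in Exc-DG, and Csf2rb2 had 166 and 8. Glipr1, the fourth, differed by -0.53 on the log2 scale, a call lost under 6 alternatives. The tables have no column for mossy cells or CA2 neurons, and the part of such nuclei in the differences below was not tested. The 5 tested markers of interneurons summed to 50.7–63.1 CPM in Exc-DG and 18.6–27.0 CPM in Exc-CA3, but only Gad1, an enzyme of GABA synthesis, passed the test (log2 difference 3.68 ± 0.16), and the vesicular GABA transporter Slc32a1, at 1.72 and 1.40 CPM, did not.

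Of the 6 tested markers of CA2 neurons, 2 were higher in Exc-DG and 3 in Exc-CA3, with sums of 154–210 and 139–152 CPM. The 4 tested markers of CA1 neurons summed to 14.9–17.0 CPM in Exc-DG and 11.5–15.9 CPM in Exc-CA3, with log2 differences from -0.21 to 0.55 and adjusted p from 0.104 to 0.384 (edgeR). Astrocyte markers summed to 242–267 and 240.2–278 CPM (3 of 6 higher in Exc-DG, 1 in Exc-CA3), microglial markers to 304–394 and 218–308 CPM (2 of 5 and 1), oligodendrocyte markers to 132–208 and 73.2–120 CPM (2 of 5 higher in Exc-DG), oligodendrocyte precursor markers to 2.63–6.22 and 3.50–8.35 CPM (1 of 2 higher in Exc-CA3), vascular markers to 2.55–5.14 and 1.57–6.26 CPM (1 of 2 higher in Exc-CA3) and markers of immature granule neurons to 39.1–46.6 and 57.3–64.5 CPM (1 of 4 and 2). Calb2, 1 of the 2 immature granule markers higher in Exc-CA3, is also among the mossy cell markers above. None of the tested markers stood under 1 CPM in all 8 columns. The microglial receptor gene P2ry12 held most of the microglial sum, with a mean of 289.8 CPM in Exc-DG, and overlaps the neuronal gene Med12l on the opposite strand. The part of RNA from these other cells in the differences was not tested. Markers of excitatory neurons summed to 1346–1565 and 1292–1414 CPM, with 2 of 4 higher in each cell type.

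Column totals ran from 7895793 to 11352265 counts for Exc-DG and from 4267129 to 7195661 for Exc-CA3 in snRNA-seq, and from 18111758 to 27815541 and from 14193352 to 21265101 in snATAC-seq. Exc-CA3 nuclei carried more counts each, with 9817–11704 against 7023–8497 in snRNA-seq and 14130–24221 against 11670–19620 in snATAC-seq, and sums per cell type cannot tell more RNA per nucleus from a different makeup of nuclei. Across genes, log values of 1 cell type correlated at 0.988–0.993 (Pearson r) between libraries of 1 strain and at 0.936–0.950 between strains, whereas Exc-DG and Exc-CA3 of the same library correlated at 0.842–0.852.

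The transcriptomes differed broadly. Of 15318 symbols tested, 8209 (53.6%) differed between the cell types at adjusted p under 0.05, with 4138 higher in Exc-DG and 4071 higher in Exc-CA3. At a fold of 2 or more, 2671 symbols (17.4%) passed, of which 1194 (7.79%) were higher in Exc-DG and 1477 (9.64%) in Exc-CA3. In 5778 symbols (37.7%) the 4 Exc-DG values and the 4 Exc-CA3 values did not overlap. The median log2 difference over all symbols was 0.02.

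Among symbols at 50 CPM or more in the higher cell type, Glis3, a zinc finger transcription factor gene, had the largest excess in Exc-DG. It stood at 798, 713, 635 and 583 CPM there and at 4.17, 5.05, 3.13 and 5.14 CPM in Exc-CA3 (log2 difference 7.31 ± 0.10, adjusted p = 1.27e-12). The others in order were Prox1os (6.98), Prox1, the cyclic AMP phosphodiesterase Pde7b (6.23), the homeobox gene Mkx (6.10), the sodium bicarbonate cotransporter Slc4a4 (6.02), the neurotrophin Ntf3 (5.90), the extracellular matrix gene Npnt (5.65), the zinc finger gene Zfp536 (5.60), the glypican Gpc4 (5.53), Calb1 (5.42) and the TGF-beta receptor gene Tgfbr1 (5.23). Ntf3 stood at 75.0, 75.7, 78.9 and 71.9 CPM in Exc-DG and at 2.01, 1.39, 0.184 and 1.17 CPM in Exc-CA3. In all 12 the lowest Exc-DG value exceeded the highest Exc-CA3 value.

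In the other direction the transcription cofactor Vgll3 differed most (log2 difference -7.09 ± 0.22, means 0.349 and 53.9 CPM), followed by the secreted protein gene Scube1 (-6.08). Kcnq5, a subunit of the M-type potassium channels that damp repetitive firing, stood at 53.4, 49.7, 79.8 and 74.0 CPM in Exc-DG and at 3763, 3534, 3914 and 3825 CPM in Exc-CA3 (-5.90 ± 0.10, adjusted p = 3.88e-12). The corepressor Runx1t1 (-5.60), the neurexin-like adhesion gene Cntnap5c (-5.55), the phospholipase C gene Plch2 (-5.43), the antisense transcripts Sox5os4 (-5.41) and Nell1os (-5.39), the copine Cpne2 (-5.38), the synaptic vesicle protein Sv2b (-5.37), the heparan sulfatase Sulf2 (-5.30) and the receptor tyrosine kinase Kit (-5.25) completed the 12. Another 4 unnamed gene models had differences above that of Kit in size. Sox5os4 and Nell1os share reads with the overlapping genes Sox5 and Nell1 if strand was not used in counting.

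**Figure D1:**
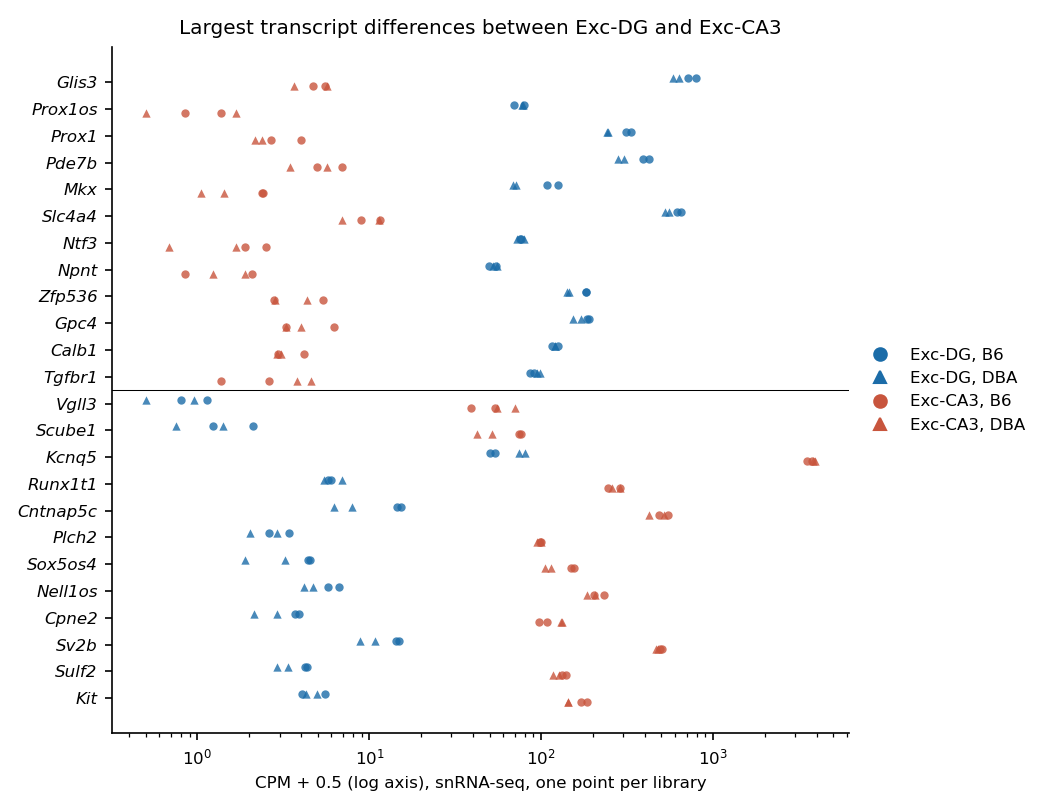
CPM + 0.5 on a log axis in the 4 Exc-DG (blue) and 4 Exc-CA3 (red) columns for the 12 symbols with the largest difference in each direction, with 1 point per library, circles for B6 and triangles for DBA. The points of the cell types are separate for every symbol, with Glis3 at 583–798 against 3.13–5.14 CPM and Kcnq5 at 49.7–79.8 against 3534–3914 CPM.

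Over all symbols tested, 27.0% were higher in Exc-DG and 26.6% in Exc-CA3, and 7.79% and 9.64% were so at a fold of 2 or more. The counts of this list and of the lists that follow stand beside those shares. Transcription factors differed in both directions. Of 25 members of the list, 12 were higher in Exc-DG and 8 in Exc-CA3, with 6 and 5 at a fold of 2 or more and a median log2 difference of 0.24. Without the library block 5 were higher in Exc-CA3. Within the list, after Prox1, Bcl11b, which is required for granule cell maturation, had the largest excess in Exc-DG, at 260.3, 243, 287 and 286 CPM against 21.4, 22.1, 20.2 and 21.3 CPM in Exc-CA3 (log2 difference 3.65 ± 0.072). Mef2c, a factor of activity-dependent synapse control, stood at 346 ± 18.1 (SD) against 79.0 ± 6.5 CPM (2.13 ± 0.063), the nuclear factor Nfia differed by 1.54 and the glucocorticoid receptor gene Nr3c1 by 1.08. In Exc-CA3 the GATA-type repressor Trps1 stood at 837, 745, 768 and 571 CPM against 40.8, 38.1, 44.1 and 33.8 CPM (-4.22 ± 0.064). Neurod6, a basic helix-loop-helix factor of pyramidal neurons, stood at 63.8, 53.3, 95.5 and 81.6 CPM in Exc-CA3 and at 2.71, 5.37, 7.55 and 5.55 CPM in Exc-DG (-3.79 ± 0.14). The homeobox gene Meis2 (-3.29 ± 0.10) and the zinc finger gene Fezf2 (-2.92) were also higher in Exc-CA3, while Zbtb20, a factor of hippocampal specification, differed by -0.092 (adjusted p = 0.0738).

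Of 20 tested genes of the mossy fibre terminal, 10 were higher in Exc-DG and 5 in Exc-CA3 (7 and 1 at a fold of 2 or more, median 0.53). The complement-like organizer C1ql3, which mossy fibres secrete to cluster kainate receptors, stood at 549.9, 536, 502 and 617 CPM in Exc-DG and at 49.2, 59.3, 61.8 and 53.8 CPM in Exc-CA3 (log2 difference 3.30 ± 0.083, adjusted p = 4.68e-11). Adcy1, the calcium-stimulated adenylyl cyclase of mossy fibre potentiation, differed by 3.29 ± 0.076, the vesicle protein synaptoporin, Synpr, by 2.79, the vesicular zinc transporter Slc30a3 by 2.35 ± 0.072 and the complexin Cplx2 by 1.15. The only list member higher in Exc-CA3 at a fold of 2 or more was Sv2b, at 506, 492, 479 and 466 CPM against 14.3, 13.8, 10.3 and 8.33 CPM in Exc-DG (-5.37 ± 0.10). The release scaffold Rims2 (-0.62) and the complexin Cplx1 (-0.51) were higher in Exc-CA3 by less, and the active zone protein Bsn differed by -0.12 (adjusted p = 0.0925).

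Sv2c, the paralogue of Sv2b, depended on strain. It stood at 101, 106, 79.1 and 79.7 CPM in Exc-DG and at 2.45, 2.44, 54.3 and 56.8 CPM in Exc-CA3, so that both B6 libraries showed a wide gap and both DBA libraries a small one. The pooled log2 difference was 1.97 ± 0.58 (adjusted p = 0.0132), and its value was 1.69 (adjusted p = 0.138) in the fit without the library block.

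On the postsynaptic side of the mossy fibre synapse, 10 of 21 genes were higher in Exc-DG and 8 in Exc-CA3 (3 and 4 at a fold of 2 or more, median -0.02). The kainate receptor auxiliary subunits were both higher in Exc-CA3, Neto1 at 637, 639, 719 and 725 CPM against 152, 157, 141 and 148 CPM (log2 difference -2.18 ± 0.064) and Neto2 at 69.1 ± 5.96 against 8.25 ± 2.01 CPM (-3.06 ± 0.095). The kainate receptor subunits themselves were divided, with Grik4 higher in Exc-CA3 and Grik3 (2.42 ± 0.22) and Grik2 (0.60) higher in Exc-DG. The AMPA receptor subunit Gria4 (-0.77) and the scaffold Homer1 (-1.22) were higher in Exc-CA3. Gria1, the AMPA receptor subunit at 2295 ± 199 and 2410.1 ± 127 CPM, differed by -0.073 (adjusted p = 0.172).

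All 37 genes of the adhesion and guidance list were tested, with 15 higher in Exc-DG and 18 in Exc-CA3 (9 and 12 at a fold of 2 or more, median -0.11). Lrrtm4, a postsynaptic organizer that binds heparan sulfate proteoglycans, stood at 7709, 6648, 6309 and 5756 CPM in Exc-DG and at 736, 713, 439 and 443 CPM in Exc-CA3 (3.54 ± 0.092). Gpc4, a glypican of the class that Lrrtm4 binds, was among the 12 largest differences and also higher in Exc-DG. The guidance gene Sema5a differed by 2.87 and Kirrel3, an adhesion molecule of mossy fibre synapses, by 1.73 ± 0.049. In Exc-CA3, Nectin3 was followed by the semaphorin receptor Plxna1 (-2.84 ± 0.10), the semaphorin Sema3e (-2.69 ± 0.24), the ephrin Efna5 (-2.67 ± 0.13) and the repellent Slit2 (-2.67 ± 0.13). Slit2 stood at 497, 522, 479 and 553 CPM in Exc-CA3 and at 99.8, 106, 58.7 and 63.6 CPM in Exc-DG. Nectin1, the axonal partner of Nectin3, overlapped between the cell types at 60.8 ± 5.49 and 52.6 ± 10.6 CPM (0.21 ± 0.079, adjusted p = 0.0384), and its call was lost under 6 alternatives. The cadherins Cdh9 and Cdh10 went in opposite directions, with Cdh9 higher in Exc-DG (0.87) and Cdh10 higher in Exc-CA3 (-1.42).

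**Figure D2:**
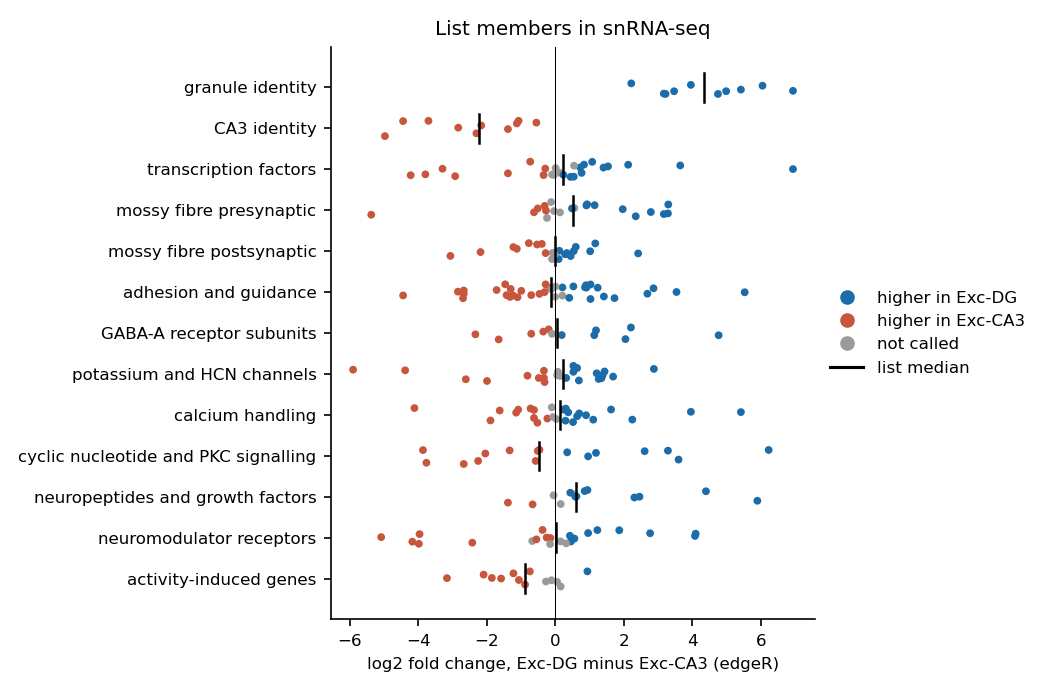
Log2 difference (Exc-DG minus Exc-CA3, edgeR) of each tested member of the 13 gene lists, 1 point per gene, with the list median as a bar. Granule identity genes lie above 0 with a median of 4.35, CA3 identity genes below 0 with a median of -2.23, and the functional lists spread to both sides with medians from -0.88 to 0.60.

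Of 12 GABA-A receptor subunits, 6 were higher in Exc-DG and 5 in Exc-CA3 (5 and 2 at a fold of 2 or more, median 0.05). Gabrd, the delta subunit of the extrasynaptic receptors that carry tonic inhibition, stood at 39.3, 45.7, 46.1 and 47.9 CPM in Exc-DG and at 1.30, 2.09, 1.66 and 1.40 CPM in Exc-CA3 (log2 difference 4.77 ± 0.13, adjusted p = 7.52e-11). Gabra4, which pairs with delta in granule cells, was also higher in Exc-DG (1.19), as was Gabrb2 (2.21 ± 0.054). Gabra5, the subunit of tonic receptors in pyramidal neurons, was higher in Exc-CA3 (-0.70), together with Gabra3 (-2.33 ± 0.19) and Gabrg3 (-1.65 ± 0.21).

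Of 24 potassium and HCN channel genes, 12 were higher in Exc-DG and 9 in Exc-CA3 (7 and 4 at a fold of 2 or more, median 0.23). The A-type channel Kcnd2 (1.44 ± 0.046) and its auxiliary subunit Kcnip4 (1.21) were higher in Exc-DG, as was the ether-a-go-go related channel Kcnh7 (2.88 ± 0.14). Next to Kcnq5, the fast delayed rectifier Kcnc2 was higher in Exc-CA3, at 504, 401, 335 and 231 CPM against 18.6, 13.7, 19.8 and 17.7 CPM (-4.38 ± 0.16). The calcium-activated channel Kcnn2 was also higher in Exc-CA3 (-1.99 ± 0.055). Kcnq3, which assembles with Kcnq5, went the other way by a small amount (0.32).

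Of 26 calcium handling genes, 13 were higher in Exc-DG and 10 in Exc-CA3 (5 and 5 at a fold of 2 or more, median 0.14). The buffers were opposed, with Calb1 higher in Exc-DG and Calb2 higher in Exc-CA3 (-4.11 ± 0.24), although Calb2 is also one of the mossy cell markers above. The plasma membrane calcium pump Atp2b4 (2.25) and the ryanodine receptor Ryr1 (1.63) were higher in Exc-DG, and the sodium-calcium exchanger Slc8a1 (-1.89 ± 0.071), the ryanodine receptor Ryr3 (-1.08) and the P/Q-type channel Cacna1a (-1.14) in Exc-CA3.

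All 16 tested genes of cyclic nucleotide and protein kinase C signalling differed, against 53.6% of all symbols tested. The other functional lists also stood above that share, from 69.2% (activity-induced genes) to 91.7% (GABA-A receptor subunits). The part of expression level in these shares was not tested. Of the 16, 7 were higher in Exc-DG and 9 in Exc-CA3 (5 and 6 at a fold of 2 or more, median -0.48). The phosphodiesterases that degrade cyclic AMP were divided between the cell types. Pde7b stood at 424, 391, 302 and 278 CPM in Exc-DG and at 4.46, 6.45, 2.94 and 5.14 CPM in Exc-CA3, whereas Pde4d stood at 103, 98.4, 89.1 and 92.2 CPM in Exc-DG and at 1720, 1463, 1279 and 1133 CPM in Exc-CA3 (-3.86 ± 0.071), and Pde4b differed by -3.76 ± 0.063. The cyclases Adcy1 and Adcy8 (2.61) were higher in Exc-DG. The classical protein kinase C genes Prkca (-2.67 ± 0.083) and Prkcb (-2.04) were higher in Exc-CA3, and Plcl1, a phospholipase C-related protein, was higher in Exc-DG (3.60 ± 0.072).

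Of 14 tested neuropeptide and growth factor genes, 9 were higher in Exc-DG and 2 in Exc-CA3 (4 and 1 at a fold of 2 or more, median 0.60). Besides Ntf3, the opioid precursor Penk (2.46 ± 0.27) and gastrin-releasing peptide, Grp (2.31 ± 0.13), were higher in Exc-DG. Pdyn, the prodynorphin gene known from mossy fibres, had 120 counts in Exc-DG and 3 in Exc-CA3, a ratio of 23.7 (95% interval 7.92–117, counting error only). Bdnf, the brain-derived neurotrophic factor gene, stood at 42.0, 41.7, 63.9 and 65.2 CPM in Exc-DG and at 26.2, 32.6, 20.6 and 28.8 CPM in Exc-CA3 (0.94 ± 0.16). Vgf (-1.38 ± 0.10) and cholecystokinin, Cck (-0.66), were higher in Exc-CA3.

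Of 22 tested neuromodulator receptor genes, 9 were higher in each cell type (5 and 5 at a fold of 2 or more, median 0.01). Oprm1, the mu opioid receptor gene, stood at 211, 228, 237 and 233 CPM in Exc-DG and at 11.9, 14.5, 15.5 and 11.5 CPM in Exc-CA3 (4.08 ± 0.076, adjusted p = 4.9e-12). Grm2, a presynaptic glutamate autoreceptor of mossy fibres, differed by 4.10 ± 0.19, the delta opioid receptor gene Oprd1 by 2.77 and the serotonin receptor gene Htr1a by 1.87. In Exc-CA3 the serotonin receptor gene Htr2c stood at 162, 164, 169 and 272 CPM against 7.42, 4.65, 4.23 and 5.80 CPM (-5.08 ± 0.13). The serotonin receptor gene Htr2a (-3.96 ± 0.22), the muscarinic receptor gene Chrm3 (-3.98 ± 0.063) and the cannabinoid receptor gene Cnr1 (-2.42 ± 0.091) were also higher in Exc-CA3, whereas the muscarinic receptor gene Chrm1 was higher in Exc-DG (0.56).

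Of 13 tested activity-induced genes, 8 were higher in Exc-CA3 and 1 in Exc-DG, with a median of -0.88. Over all symbols tested the shares were 26.6% and 27.0%. Nr4a3, an orphan nuclear receptor gene, stood at 40.7, 47.2, 42.5 and 45.1 CPM in Exc-CA3 and at 4.41, 3.73, 3.32 and 8.96 CPM in Exc-DG (-3.16 ± 0.18). Nr4a1 (-2.09), Npas4 (-1.85), the dendritic scaffold gene Arc (-1.58) and Homer1 were also higher in Exc-CA3, and Bdnf was the 1 member higher in Exc-DG. Fos and Fosb, with 11 and 17 counts in Exc-DG and 15 and 25 in Exc-CA3, were too low to be tested.

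Chromatin accessibility differed in more of its features. Of 246462 peaks tested, 163762 (66.4%) differed at adjusted p under 0.05, 82337 (33.4%) more open in Exc-DG and 81425 (33.0%) more open in Exc-CA3. At a fold of 2 or more there were 85373 (34.6%), of which 32429 were more open in Exc-DG and 52944 in Exc-CA3. Scaled by library totals alone, the share of called peaks that were more open in Exc-DG was 43.7% in place of 50.3%, and the median log2 difference of all peaks was -0.072 in place of 0.05. Exc-DG and Exc-CA3 of the same library correlated at 0.640–0.687 across peaks, and libraries of 1 cell type and strain at 0.980–0.987.

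The kind of place mattered. Places were set by the peak midpoint and by protein-coding genes only, so a peak at a noncoding gene can count as intergenic. The closest starts named below are also those of protein-coding genes. Peaks within 1 kb of such a start were called in 79.8% of 13628 cases, almost all by small amounts. Among them 9593 were more open in Exc-DG and 1286 in Exc-CA3, but 3.8% and 3.1% of the 13628 at a fold of 2 or more. Of 100768 intergenic peaks, 14.6% were more open in Exc-DG and 28.7% in Exc-CA3 at a fold of 2 or more, and of 118865 intronic peaks 13.4% and 18.3%. Promoter peaks took 28.9%, 28.7%, 29.6% and 29.1% of the counts in Exc-DG and 24.3%, 24.1%, 25.5% and 25.1% in Exc-CA3, and the ranges did not overlap. Their median log2 difference was 0.34, or 0.22 with library totals alone, where 8107 were more open in Exc-DG and 1713 in Exc-CA3.

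Among peaks at 20 CPM or more in the higher cell type, the largest excess in Exc-DG was the intronic Pdzd2 peak (chr15:12727853-12728807, 955 bp), at 30.4, 28.4, 26.4 and 26.4 CPM against 1.36, 0.885, 1.14 and 1.54 CPM (log2 difference 4.46 ± 0.11, adjusted p = 3.27e-25). The second was the peak upstream of Prox1 (chr1:190305565-190307744), 136 kb from its start, at 22.2, 22.4, 22.7 and 23.0 CPM against 2.02, 2.11, 1.32 and 1.26 CPM (3.77 ± 0.11). An intronic peak of Rai14 (chr15:10608667-10609566, 3.64), an intergenic peak whose closest gene start is that of Fut8 (chr12:77107032-77107905, 3.52) and an intronic peak of Il1r1 (chr1:40270165-40270833, 3.36) followed. The transcripts of Pdzd2 (1.94), Rai14 (0.64) and Il1r1 (3.98) were higher in Exc-DG too, although the call for Rai14 was lost in DESeq2 and without B6 library 2 or DBA library 2 (adjusted p from 0.0914 to 0.097).

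In Exc-CA3 the largest excess was an intergenic peak 748 kb from the closest protein-coding start, that of Pcdh18 (chr3:49008626-49009958). It stood at 18.7, 18.5, 26.3 and 22.9 CPM against 1.30, 0.682, 0.596 and 0.617 CPM (-4.71 ± 0.14). The next was 25.5 kb upstream of Itprid1 (chr6:55810884-55811877, -4.32), whose transcript was also higher in Exc-CA3 (-2.92). An intronic peak of Arhgef26 (chr3:62412016-62413116, -3.97), whose transcript differed by -4.56, and an intergenic peak with Pepd closest (chr7:34888278-34889371, -3.76) came after. The fifth was a peak of 2409 bp over 3 annotated tRNA genes in the large tRNA cluster of chromosome 13 (chr13:23297872-23300280), at 31.3, 33.3, 35.8 and 31.9 CPM in Exc-CA3 and at 3.35, 2.14, 2.98 and 2.74 CPM in Exc-DG (-3.55 ± 0.087).

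Over all peaks tested, 13.2% were more open in Exc-DG and 21.5% in Exc-CA3 at a fold of 2 or more. Peaks along some of the named and listed genes are given beside those shares. At a fold of 2 or more, all 11 peaks in or within 1 kb of Prox1 were more open in Exc-DG, as were 68 of 80 at Slc4a4 and 58 of 75 at Glis3, with 0 and 2 in the other direction. At Kcnq5, 76 of 92 peaks were more open in Exc-CA3 and 2 in Exc-DG, and the same counts were 42 of 48 and 1 at Sv2b, 16 of 16 and 0 at Kit, 20 of 23 and 0 at Nectin3, 76 of 97 and 1 at Spock1 and 36 of 42 and 0 at Trps1. At Scube1, by contrast, 5 of 14 were more open in Exc-CA3 and 1 in Exc-DG, at Sox5os4 1 of 3 in Exc-CA3, and at Tgfbr1 4 of 9 in Exc-DG. Pde4d, which spans 1503.5 kb, had 114 of 175 more open in Exc-CA3 and 4 in Exc-DG.

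The peak at the start of Prox1 (chr1:190169956-190171058) stood at 21.7, 22.4, 24.3 and 22.0 CPM in Exc-DG and at 3.54, 3.13, 2.76 and 2.61 CPM in Exc-CA3 (2.91 ± 0.095), and that of Zfp536 differed by 3.34 ± 0.11. The start of Neurod6 (chr6:55680952-55682294) stood at 17.9, 18.7, 17.8 and 18.6 CPM in Exc-CA3 and at 2.91, 2.44, 2.74 and 2.74 CPM in Exc-DG (-2.75 ± 0.099), and that of Sv2b differed by -2.38 ± 0.098. The starts of Kcnq5 (-0.74 ± 0.060) and Nectin3 (-0.33 ± 0.036) differed far less than their transcripts, and the peaks chosen for Homer1 (0.86 ± 0.15) and Cacna1a (1.06 ± 0.26) went against theirs. Along Homer1, however, 15 of 31 peaks were more open in Exc-CA3 and 4 in Exc-DG, and along Cacna1a 26 of 48 and 5.

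Over the whole table, 13376 symbols, noncoding ones included, had a peak overlapping 1 kb either side of their annotated start. Of these, 6143 were called in both assays. Transcript and promoter peak went in the same direction in 4096 of them, or 66.7% (Wilson 95% interval 65.5–67.8%, counting error only). The share was 97.6% of the 3461 symbols higher in Exc-DG and 26.7% of the 2682 higher in Exc-CA3. The median promoter peak was shifted towards Exc-DG by 0.36 on the log2 scale, and relative to that median the shares were 74.8% and 64.4%. Among symbols at a fold of 2 or more in snRNA-seq they were 89.3% and 84.2%, with median promoter differences of 0.73 and -0.40 before centring. Pearson's r of the differences was 0.537 across genes, which are not independent replicates, and the assays share cell type names that were carried from one to the other. Of the 13376 symbols, 10524 had a promoter peak more open in Exc-DG and 1020 one more open in Exc-CA3, and a peak shared by symbols was counted for each. Beside those counts, 10 of 10 granule markers had a promoter peak more open in Exc-DG, and of 13 activity-induced genes with a promoter peak 10 were more open in Exc-DG and 0 in Exc-CA3.

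**Figure D3:**
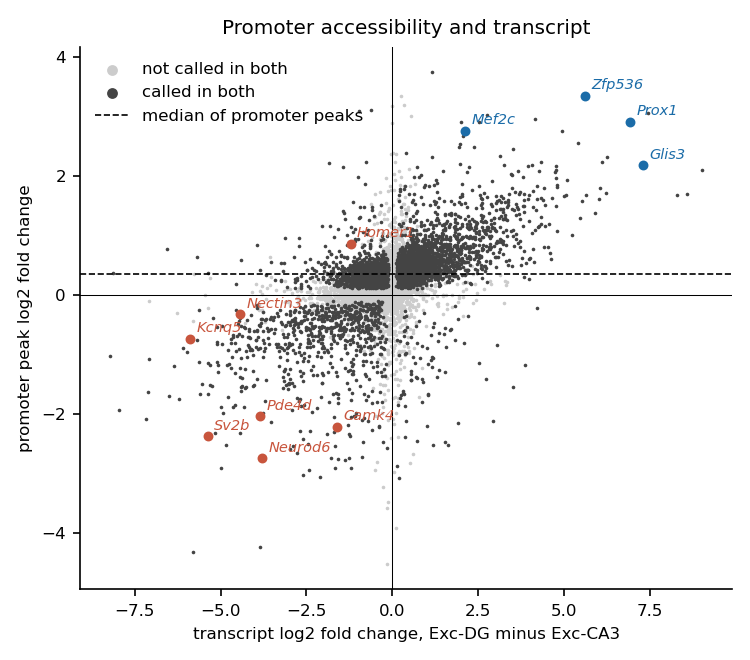
Log2 difference (Exc-DG minus Exc-CA3) of the promoter peak against that of the transcript for symbols with both, 1 point per gene, dark where both assays called it and with the median promoter difference as a dashed line. The dashed line lies at 0.36, and Prox1 (6.94 and 2.91) and Sv2b (-5.37 and -2.38) differ in opposite directions on both axes.

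In the central 300 bases of the peaks more than 1 kb from a start, 15 short patterns were counted on both strands. They were the E-box CAGATG, the E-box CAGCTG, the E-box CATATG, the E-box CACGTG, the AP-1 pattern TGANTCA, the cyclic AMP response core TGACGT, the NFI core TTGGCA, the MEF2 pattern, the RFX pattern GTTGCC, the nuclear receptor pattern AGGTCA, the ETS core CCGGAA, the TEAD core GGAATG, the homeobox core TAATTA, the EGR core GCGTGGG and the SOX core ACAAAG. The E-box CAGATG occurred in 33.5% of the 232834 peaks, in 29.1% of the 31913 that were more open in Exc-DG at a fold of 2 or more and in 42.3% of the 52520 more open in Exc-CA3. The AP-1 pattern TGANTCA occurred in 14.4%, 10.7% and 19.5%, and the E-box CATATG in 9.2%, 8.0% and 11.7%. The RFX pattern GTTGCC occurred in 11.2%, 13.6% and 10.0%, the MEF2 pattern in 4.9%, 5.9% and 4.3% and the NFI pattern TTGGCA in 22.2%, 25.9% and 24.4%. Median GC content was 46.0%, 45.3% and 44.3%, and its part in these shares was not tested. The homeobox core TAATTA occurred in 9.2%, 10.1% and 11.3%. A match is a run of letters and not evidence of binding, and patterns can overlap in a window.

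**Figure D4:**
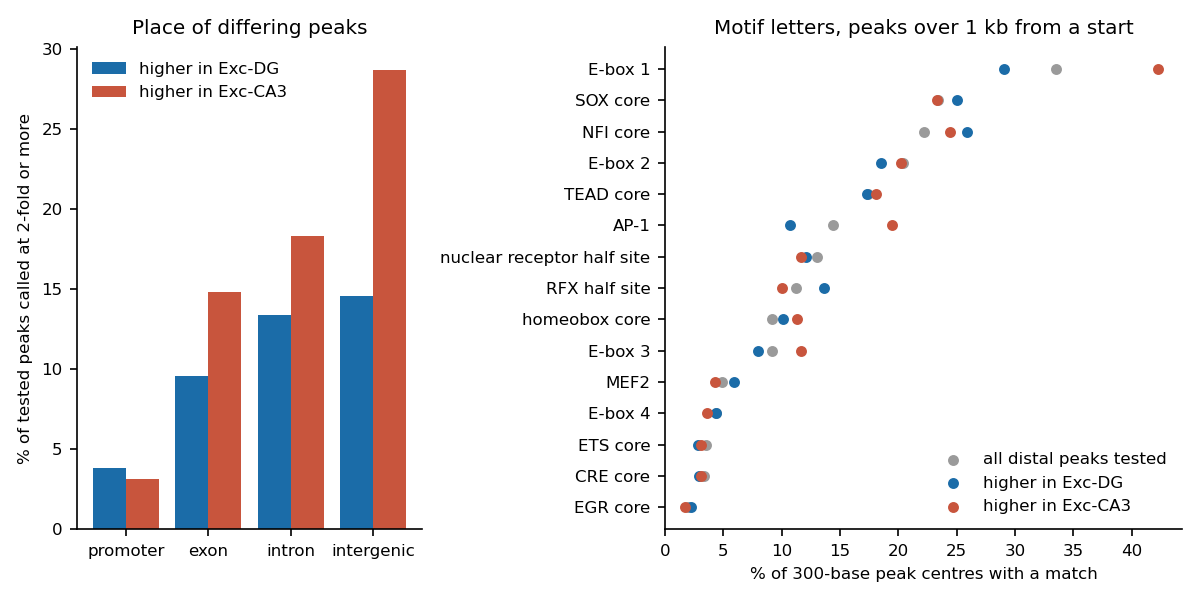
Left, percent of tested peaks more open in each cell type at a fold of 2 or more by place; right, percent of peaks over 1 kb from a start whose central 300 bases hold a pattern, for all peaks and the peaks more open in each cell type (E-box 1 to 4 in the order named in the text). Intergenic peaks reach 28.7% for Exc-CA3 and promoter peaks stay at 3.8% or less, and CAGATG shows the widest gap, 29.1% against 42.3%.

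Whether the contrast between the cell types differed between B6 and DBA was tested as an interaction. It passed in 639 of 15318 symbols (4.17%), 321 with a larger Exc-DG minus Exc-CA3 difference in DBA and 318 in B6, and in 2235 of 246462 peaks (0.907%). In 175 of the 639 the difference had opposite signs in the 2 strains. The strains were mapped to separate versions of the genome, so strain and reference cannot be told apart in these values. The counts were 125 symbols and 96 peaks in DESeq2, 260 symbols without the library block, and 902 to 1314 peaks when any 1 of the 4 libraries was left out.

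Symbols were named only where both DBA library pairs lay on 1 side of both B6 pairs. That separation was therefore fixed by the rule. Sv2c had the strongest interaction of the named symbols, -4.87 ± 0.19 (DBA minus B6, adjusted p = 2.29e-24), with log2 differences of 5.37 in B6 and 0.53 in DBA. Col11a1, a fibrillar collagen gene, stood at 10.6, 11.9, 2.06 and 2.02 CPM in Exc-DG and at 64.6, 92.0, 301 and 309 CPM in Exc-CA3, so that the excess in Exc-CA3 was larger in both DBA libraries (-4.42 ± 0.21). Zfp804b, a zinc finger gene, stood at 506, 451, 88.8 and 81.0 CPM in Exc-DG and at 138, 143, 182 and 200.4 CPM in Exc-CA3, higher in Exc-DG in B6 and in Exc-CA3 in DBA (-2.93 ± 0.095). Palmd (-1.79 ± 0.17) differed by 0.08 in B6 and -1.68 in DBA, and Arhgap26 (-2.77 ± 0.21) was low in DBA in both cell types. Its symbol has more than 1 entry in the annotation, overlapping on the same strand.

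In the other direction, Sgcz, a sarcoglycan gene, stood at 459.7, 425, 656 and 619.8 CPM in Exc-DG and at 98.3, 95.0, 32.2 and 37.6 CPM in Exc-CA3, with a larger excess in Exc-DG in both DBA libraries (2.01 ± 0.11). The cadherin Dchs2 (2.73 ± 0.36), the G protein regulator Rgs6 (1.76 ± 0.14), the atypical kinase gene Mapk4 (1.74 ± 0.20) and Sema3e (1.55 ± 0.12) completed the named symbols. Sema3e stood at 205, 185, 155 and 149.7 CPM in Exc-CA3 and at 17.8, 16.7, 38.1 and 40.7 CPM in Exc-DG, so its excess in Exc-CA3 was smaller in DBA. Of the 10 granule markers 2 passed the interaction test, Dock10 (0.74) and Lct (-1.93), and of the 10 CA3 markers Spock1 (-1.51), in each case with the same direction in both strains.

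**Figure D5:**
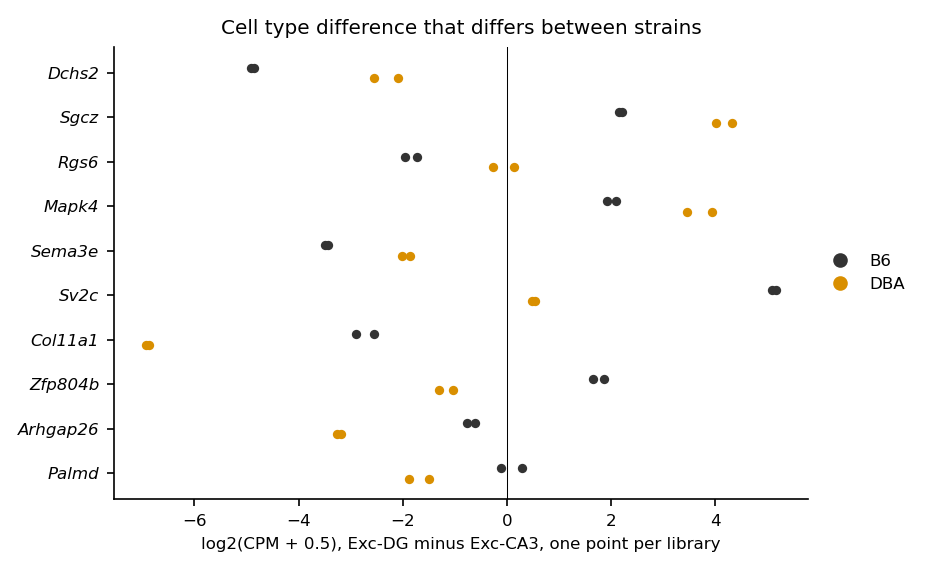
Difference in log2(CPM + 0.5), Exc-DG minus Exc-CA3, in each of the 4 library pairs for the 10 symbols named by interaction, B6 and DBA pairs in separate colours. The naming rule required both DBA pairs to lie on 1 side of both B6 pairs, so their separation was fixed in advance. Sv2c stood at 5.37 in B6 and 0.53 in DBA in the fits.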

How the data were processed

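The authors used Cell Ranger 6.0.2 with introns kept for snRNA-seq and Cell Ranger ATAC 2.0.0 for snATAC-seq, on mm10 for B6 and an mm10 with substituted variants for DBA, removed doublets, clustered nuclei in Seurat 4.0.5, called peaks by sample and merged them. Their deposited values are raw counts per gene or peak, added up for each cell type and library. Library numbers in the tables (2 and 3) differ from the replicate numbers of the labels, so columns were placed by strain, and pairs are columns of the same library. Columns of other cell types (60 and 52) were left out. Column totals and nuclei are given in the text.

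Symbols and peaks with at least 1 count in each strain (23170 of 33902 and 300358 of 300819) were filtered with filterByExpr, leaving 15318 and 246462, which held 97.82% and 98.1% of the counts. Exc-DG and Exc-CA3 were compared with the edgeR 4.0.16 quasi-likelihood test (R 4.3.3, TMM, library as block, Benjamini-Hochberg adjustment over all features), and the strain by cell type interaction in the same way. Standard errors come from the log2 fold change and its F statistic, and CPM use TMM library sizes. edgeR gave biological coefficients of variation of 0.0699 (transcripts) and 0.0631 (peaks). The fits were also run on simulated counts in which few features changed, in equal numbers each way. Such counts do not test the scaling where most features differ, as they did here.

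Named symbols are the 12 largest called differences each way at 50 CPM or more in the higher cell type with all 4 libraries in the same direction, unnamed models left out, plus members of fixed lists. Named peaks are the 5 each way at 20 CPM or more with all 4 libraries in the same direction. Named interactions are the 5 each way at 50 CPM or more in a strain mean of either cell type. The cell type with the higher mean had to reach 10 CPM in both strains. Both DBA library pairs also had to lie on 1 side of both B6 pairs, and unnamed models were left out. The members, lists and rules were chosen with earlier results of these data known. The GENCODE release the counts were made with is not given in the sources used here, and positions come from GENCODE vM21 and tRNA genes from RefSeq (GRCm38), and the promoter peak of a symbol is the one with the highest mean CPM within 1000 bp of its start. Alternatives were DESeq2 1.42.0, RLE factors, library totals, another filter, no block, single strains, no both-strain requirement and leaving out each library. Python 3.11.15 and pysam 0.24.0 were used. Some list members that were counted are not reported here by name.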

Additional observations from a re-analysis of the deposited data

Results flagged for a closer look

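In 44 named symbols and peaks, the 4 library pairs were checked for 1 pair that stood apart by Dixon's criterion, which chance meets in about 1 of 20. Sox5os4 met it, at -5.92 in DBA library 3, as did the Rai14 intron peak at chr15:10608667-10609566, at 2.93 in B6 library 2, both on the log2 scale of Exc-DG minus Exc-CA3.

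The difference between the cell types itself differed between the strains, by the edgeR interaction test over all features, in the 10 symbols that the rule named. The interactions (DBA minus B6, log2) were 2.73 for Dchs2, 2.01 for Sgcz, 1.76 for Rgs6, 1.74 for Mapk4, 1.55 for Sema3e, -4.87 for Sv2c, -4.42 for Col11a1, -2.93 for Zfp804b, -2.77 for Arhgap26 and -1.79 for Palmd.

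Among the other symbols named in the text, the test was also passed by genes with a large difference between the cell types: Kcnq5 (0.49), Cntnap5c (-1.01), Cpne2 (-1.04), Sv2b (-0.51), Dock10 (0.74), Lct (-1.93) and Spock1 (-1.51). Of synaptic and adhesion genes, Synpr (-0.37), Rims2 (0.33), Grik3 (-1.52), Neto1 (-0.28), Homer1 (-0.34), Lrrtm4 (0.47) and Slit2 (-0.77) passed. Of channels and calcium genes, Gabrg3 (-1.33), Kcnip4 (0.49), Kcnc2 (0.90), Slc8a1 (-0.35) and Cacna1a (0.57) passed. The kinase gene Prkca (-0.43), Bdnf (0.89) and Cck (-0.48) passed as well. Among the 10 named peaks, the Il1r1 intron peak at chr1:40270165-40270833 had an interaction of 1.39.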

How the results depend on the processing

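The named peaks kept their direction and call under each alternative run for them, and so did the 10 interactions named by rule under those run for them, namely DESeq2, RLE factors, no block and leaving out each library. Of the 124 symbols whose values are given, 5 lost a call under an alternative (Iyd, Nectin1, Glipr1, Rai14 and Sv2c) and 2 gained one (Zbtb20 and Bsn). The number of symbols that differed between the cell types, 8209, was 6270 in DESeq2 and 7112–7748 with 1 library left out, and that of peaks, 163762, was 128801 and 150747–157195. Without the replicate block the counts were 5751 and 154295, with a library as the pairing unit in the main test. With a fold of 2 required they were 2671 and 85373. The interaction was less stable. Its 639 symbols became 125 in DESeq2, 260 without the replicate block and 431–600 with 1 library left out, and its 2235 peaks became 96, 2039 and 902–1314. Of the list counts, that of transcription factors higher in Exc-CA3 went from 8 to 5 without the block, and the others that moved by over 1.5 times were marker lists of 5 or fewer tested genes. Neuromodulator receptors higher in Exc-CA3 went from 9 to 6 without the block. The share of promoter peaks that moved with the transcript was 66.7% with 250 bp in place of 1000 bp and 66.8% with the nearest peak. Depth limited genes such as Fos, Fosb and Crh, which had too few counts to be tested.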

Other observations

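Because the peak over tRNA genes ranked among the largest differences, peaks over annotated tRNA genes were counted, a choice made after the values were seen. Of 200 such peaks, 89 were more open in Exc-DG and 71 in Exc-CA3, or 35.5% against 33.0% of all peaks, with a median log2 difference of 0.04 against 0.05. Among the 165 at 5 CPM or more, 88 were more open in Exc-DG and 42 in Exc-CA3, 1 and 14 of them at a fold of 2 or more, with a median of 0.15. Of the 133 that were also over 1 kb from a start, 59 were more open in Exc-DG and 40 (30.1%) in Exc-CA3. Of 37448 other peaks at 5 CPM or more and over 1 kb from a start, 19582 were more open in Exc-DG and 10179 (27.2%) in Exc-CA3. On chromosome 13, 46 of 73 were more open in Exc-CA3 and 13 in Exc-DG, 29 and 0 of them at a fold of 2 or more, with a median of -0.49. These include the peak that prompted the count. On the other chromosomes, 25 of 127 were more open in Exc-CA3 and 76 in Exc-DG, with a median of 0.18. A stretch of chromosome 13 was taken between its first and last tRNA peak called at a fold of 2 or more, so its bounds depend on the values. Among 78 peaks there that did not lie over a tRNA gene, 27 were more open in Exc-CA3 and 33 in Exc-DG, 20 and 6 at a fold of 2 or more, with a median of 0.18. A peak over a leucine tRNA gene (chr13:21914328-21915018) stood at 11.0, 12.8, 13.9 and 13.9 CPM in Exc-CA3 and at 1.22, 0.585, 0.893 and 0.771 CPM in Exc-DG. Many tRNA genes have near-identical copies, so counts of single peaks over them are uncertain.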
